A study of Mus musculus with 12 samples.

Results

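The replication-dependent histone genes were taken from the mRNA table of the mouse thymus as every gene symbol that starts with Hist1h, Hist2h, Hist3h or Hist4h. Of 22843 gene symbols, 67 were members, with 76 of 77525 transcripts. Another 2 assembled transcripts, which carry the symbol of Hist1h1d in capitals and a vole protein as description, were summed into Hist1h1d. They gave 67.3% to 76.0% of its counts and 16.4% to 19.2% of the H1 counts. The members comprise 6 H1, 18 H2A, 18 H2B, 12 H3 and 13 H4 genes. Of these, 54 carry a Hist1 symbol, 10 a Hist2, 2 a Hist3 and 1 a Hist4 symbol. Whole thymuses came from male wild type C57BL/6 mice at 2 weeks (2W), 6 weeks (6W) and 3 months (3M), with 2 libraries per age and no treatment. The RNA was depleted of ribosomal RNA and not selected for poly(A), so transcripts without a poly(A) tail were kept. The labels call the 2 libraries of an age separate samples. The paper names 2 biological replicates per age, but whether each library came from 1 animal is not stated in the labels. The p-values set an age difference against the spread between these libraries.

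Replication-dependent histone genes supply the proteins that package new DNA while it is copied in S phase. The core histones H2A, H2B, H3 and H4 form the nucleosome, and the linker histone H1 binds the DNA where it enters and leaves. Most of these genes lack introns, occur in clusters of near-identical copies, and give mRNAs that end in a stem-loop instead of a poly(A) tail. In the thymus, dividing thymocytes are the main cells that need them. In whole tissue, fewer dividing cells and less histone RNA per cell cannot be told apart.

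Library totals in the mRNA table lay between 16519753 and 22553481 estimated counts, which are counts that a program shares out among transcripts that could have given a read. Markers of double-positive thymocytes, the most numerous thymus cell, were all detected: Cd4 and Cd8a stood at 611 and 1070 counts per 1000000 (CPM, scaled by TMM, edgeR's correction of library size) in the lowest library. Of the non-zero counts of histone transcripts, 87.7% were not whole numbers, against 84.1% over all transcripts. Estimated counts that are not whole arise where reads are divided between transcripts, of the same gene or of others, and how much was divided between histone copies is not known. The values of near-identical copies are therefore less certain than those of a class. Intervals from depth would cover counting error only and are not given.

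Promoters of 60 members could be matched to a single gene of the RefSeq table (GRCm38.p6), 2 members were left out for an ambiguous match, and the others had no entry. Shown, read 5′ to 3′ on the strand of the gene, are the 150 bases before the start for 6 members whose summed counts passed a threshold below, so that the upstream sequence can be read beside their values. Capitals mark the letters of 5 motifs known from histone promoters, found on either strand: TATAAA (the TATA box), the CCAAT box, the octamer ATTTGCAT, the H1 box AAACACA and GTCCG, the core of the H4 site bound by HINFP.
Hist1h1c, H1, chr13:23738657-23738806, plus strand: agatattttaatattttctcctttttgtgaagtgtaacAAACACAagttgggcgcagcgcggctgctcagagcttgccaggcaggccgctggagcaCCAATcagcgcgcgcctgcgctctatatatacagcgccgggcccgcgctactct
Hist3h2a, H2A, chr11:58954535-58954684, plus strand: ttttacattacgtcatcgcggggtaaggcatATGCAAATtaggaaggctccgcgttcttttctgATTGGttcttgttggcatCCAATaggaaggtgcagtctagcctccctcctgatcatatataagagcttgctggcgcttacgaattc
Hist3h2ba, H2B, chr11:58948761-58948910, plus strand: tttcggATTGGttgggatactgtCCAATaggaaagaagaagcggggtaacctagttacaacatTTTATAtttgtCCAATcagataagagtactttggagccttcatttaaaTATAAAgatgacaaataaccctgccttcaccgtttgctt
Hist1h2bb, H2B, chr13:23746584-23746733, plus strand: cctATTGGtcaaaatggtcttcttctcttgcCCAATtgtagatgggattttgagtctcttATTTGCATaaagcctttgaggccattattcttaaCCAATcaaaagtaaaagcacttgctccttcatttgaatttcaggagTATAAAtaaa
Hist1h4c, H4, chr13:23698459-23698608, minus strand: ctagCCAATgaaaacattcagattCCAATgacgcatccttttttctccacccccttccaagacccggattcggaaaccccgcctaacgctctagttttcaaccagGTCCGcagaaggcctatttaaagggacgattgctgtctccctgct
Hist1h4f, H4, chr13:23551669-23551818, minus strand: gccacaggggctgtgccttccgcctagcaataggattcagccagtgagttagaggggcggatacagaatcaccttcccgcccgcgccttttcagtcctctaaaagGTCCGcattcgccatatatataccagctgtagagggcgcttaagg

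The motifs were counted in the 250 bases before the start, on both strands. GTCCG was found in 11 of 12 H4 promoters, and in 6 of these genes a match began 46 or 45 bases before the start. It was also found in 7 of 16 H2A promoters, in 1 of 16 H2B and in 1 of 10 H3 promoters, and in none of 6 H1 promoters. Over all 32851 RefSeq promoters, 19.2% held it. The H1 box was found in 5 of 6 H1 promoters, between 122 and 112 bases before the start, in 2 H2A and 2 H2B promoters, and in 6.25% of all promoters. Hist1h1a was the H1 gene and Hist1h4b the H4 gene without the match. The octamer, which Oct-1 binds, lay in 14 of 60 member promoters, 7 of H2A and 7 of H2B genes, against 1.6% of all promoters. A CCAAT box lay in 49 of 60 (all promoters, 33.8%) and TATAAA in 29 of 60 (all promoters, 12.4%). GTCCG and CCAAT are short, and a match is not a binding site. Partners of the head-to-head pairs described below share their upstream stretch, so a match there can count for both genes. The same octamer counts for Hist1h2ae and for Hist1h2bg, for example.

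**Figure D1:**
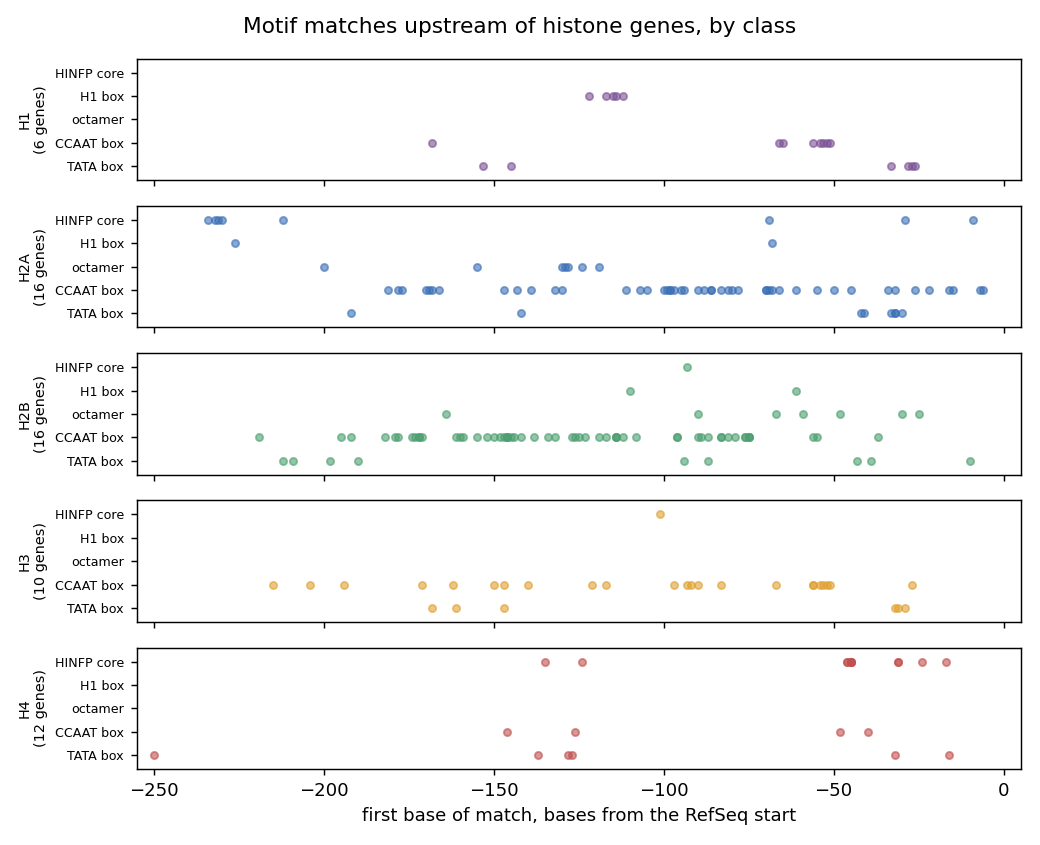
Matches of 5 motifs in the 250 bases before the RefSeq start of 60 histone genes, by class; each point is the first base of 1 match and the horizontal axis is the distance from the start in bases. H1 box matches in H1 genes sit between -122 and -112, and 6 of 12 H4 genes have a HINFP core match at -46 or -45.

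Some H2A and H2B genes stand head to head. In 8 pairs, the starts of an H2A and an H2B gene lay 164 to 281 bases apart on opposite strands, so the stretch between them is the promoter of both. One of these pairs, Hist1h2aa with Hist1h2ba, was near or at 0 in the thymus. In the other 7 pairs both partners had lower values at 3M than at 6W, as had 16 of 16 tested H2A and 16 of 17 tested H2B genes. The log2 fold changes of the partners differed by a median of 0.19 (0.03 to 0.38). Partners were not compared with unpaired genes. These are descriptions of pairs whose reads can be shared with other copies.

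Histone RNA made up 1.38% to 2.9% of the mRNA counts of a library and was lowest at 3M. The members took 2.8% and 2.15% of the mRNA counts in the 2W libraries, 2.49% and 2.9% in the 6W libraries, and 1.38% and 2.03% in the 3M libraries (replicates 1 and 2). The means were 2.47% ± 0.459 (SD, n = 2) at 2W, 2.69% ± 0.295 at 6W and 1.7% ± 0.46 at 3M. On FPKM, which divides by transcript length, the shares were 9.26% ± 1.44, 9.54% ± 0.859 and 6.6% ± 1.47. Both 3M libraries were below all 4 younger libraries, and the 2W and 6W libraries overlapped.

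Summed over the 67 members, the level was 29196 and 22407 CPM at 2W, 24630 and 28884 CPM at 6W, and 13884 and 19760 CPM at 3M. The 3M mean was 62.9% of the 6W mean. The members also varied together between libraries of the same age. Of 64 tested members, 59 were lower in 3M replicate 1 than in 3M replicate 2, 57 were lower in 2W replicate 2 than in 2W replicate 1, and 58 were lower in 6W replicate 1 than in 6W replicate 2. The summed level of 3M replicate 1 was 70.3% of that of 3M replicate 2, and 2W replicate 2 was at 76.7% of 2W replicate 1. The members are thus not independent of one another, and a count of members does not measure how sure the age difference is. With 2 libraries against 2, the smallest two-sided p that exact permutation of the libraries allows for 1 value is 0.333.

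By class, the H4 sum was 7597 and 5366 CPM at 2W, 6779 and 7791 CPM at 6W, and 3427 and 5072 CPM at 3M. The H2B sum was 6255 and 4172, then 4932 and 5539, then 2604 and 3797 CPM at these ages. For H2A the sums were 7416 and 5696, 5909 and 7271, and 3506 and 5008 CPM. In these 3 classes and in H3 (4271 and 3412, 3552 and 4484, 2100 and 3171 CPM), the 3M libraries lay below all younger ones. The H1 sum was 3656 and 3761 CPM at 2W, 3458 and 3799 CPM at 6W, and 2247 and 2712 CPM at 3M. Without the transcripts under the capital spelling the H1 sum was 3057 and 3070, 2854 and 3095, and 1818 and 2193 CPM, and the 3M mean was 67.4% of the 6W mean. In H1 the 2W libraries lay close together, while in the 4 core classes 2W replicate 2 stood between 66.7% and 79.9% of 2W replicate 1. The 3M mean was 58.3% of the 6W mean in H4, 61.1% in H2B, 64.6% in H2A, 65.6% in H3 and 68.3% in H1. The order of the classes was not tested.

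**Figure D2:**
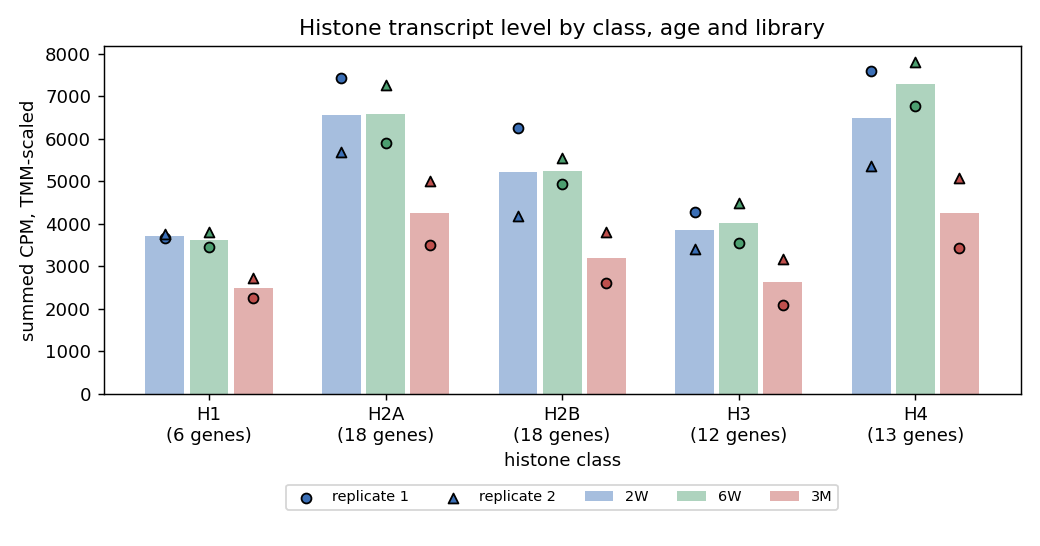
Summed TMM-scaled CPM of the histone genes of each class (vertical axis) at 2W, 6W and 3M; bars are means of 2 libraries and points are the libraries. In each of the 5 classes both 3M libraries lie below the 4 younger libraries.

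Levels between genes were compared on FPKM, averaged over the 6 libraries. Of the members, 55 exceeded 100 FPKM and 10 exceeded 1000. The highest were Hist2h2aa1 (1710 FPKM, H2A), Hist1h4m (1480, H4), Hist1h2bf (1450, H2B), Hist1h2ap (1320, H2A) and Hist2h2aa2 (1240, H2A). In H3 the highest were Hist1h3c (1030), Hist1h3b (970) and Hist1h3g (563), and in H1 Hist1h1a (933), Hist1h1b (783) and Hist1h1c (542). The next H4 genes were Hist1h4b (1200) and Hist1h4f (1170), and the next H2B genes Hist1h2bg (994) and Hist1h2bk (666). At the other end stood the testis-type genes. Hist1h1t, the linker histone of spermatocytes, had 2.36 FPKM, Hist1h2aa had 1 count in a single library, and Hist1h2ba had no count. Hist1h2ao had 2 counts in 2W replicate 1 only. Hist1h2aa, Hist1h2ba and Hist1h2ao did not pass the filter on low counts, which left 64 of 67 members among 14805 tested genes.

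Between 2W and 6W, the growth phase of the thymus, the summed level of the histone genes differed by less than the spread between libraries of an age. In 6W against 2W, 42 of 64 members were higher and 22 lower by sign, with a median log2 fold change of 0.08 (all tested genes, -0.01). No member had an adjusted p under 0.05 with edgeR's quasi-likelihood test, with DESeq2 or with limma, against 1.74%, 5.62% and 2.72% of all tested genes with these tools, and 1 member was lower at an unadjusted p under 0.05 (all genes, 7.49% lower). The study's threshold (log2 fold change beyond 1 in either direction, with an unadjusted p below 0.05) was passed by 1 member in the lower direction, against 0.878% of all tested genes. No 6W library overlapped a 2W library in 2 members that were higher (all genes, 28.0%) and 4 that were lower (all genes, 29.8%). All 13 H4 genes had positive signs, with a median of 0.20 (all tested genes, 7279 of 14805 higher). The H4 sums of the 2 ages overlapped, at 7597 and 5366 CPM in the 2W libraries and 6779 and 7791 CPM in the 6W libraries. The median over all members rests on single libraries. It was 0.30 without 2W replicate 1 (55 of 64 higher) and 0.19 without 6W replicate 1 (51 higher), and it was -0.09 without 2W replicate 2 (48 lower) and -0.06 without 6W replicate 2 (40 lower).

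The 1 member past the study's threshold at 6W was Hist1h3d, an H3 gene of low level. It had 36.4 and 73.2 CPM at 2W, 10.6 and 19.3 CPM at 6W, and 29.3 and 11.8 CPM at 3M. Its 6W libraries lay below its 2W libraries, and its 3M libraries overlapped the 6W ones. The log2 fold change in 6W against 2W was -1.87 (SE 0.53; edgeR adjusted p = 0.141). Without 2W replicate 1, Hist1h3d passed the study's threshold as lower (all genes, 1.18%), and Hist1h2br and Hist1h4c passed it as higher (all genes, 5.17%). Without 2W replicate 2 no member passed (all genes in the lower direction, 0.683%).

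Between 6W and 3M, the interval in which the organ begins to shrink, nearly all histone genes were lower together. In 3M against 6W, 61 of 64 members were lower by sign, with a median log2 fold change of -0.66 (all tested genes, 0.02, of which 46.8% were below 0). The 6W and 3M libraries did not overlap in the lower direction for 55 members, against 23.3% of all tested genes. An unadjusted p under 0.05 in the lower direction was reached by 50 members, which is 78.1% of those tested, against 6.46% of all genes. After adjustment over all genes no member passed with edgeR (all genes in the lower direction, 0.00675%) and no gene at all with limma, while DESeq2 gave 18 members, all lower (28.6% of members with an adjusted p, against 1.29% of all such genes in the lower direction). The study's threshold was passed by 5 members, all lower (all genes, 0.817%). The median was -0.76 in H4 (13 of 13 lower), -0.75 in H2B (16 of 17), -0.65 in H2A (16 of 16), -0.52 in H3 (10 of 12) and -0.52 in H1 (6 of 6).

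The size of this difference depended on the 3M libraries. Without 3M replicate 2 the median was -1.001 and 32 members passed the study's threshold as lower (all genes, 2.24%). Without 3M replicate 1 the median was -0.44 and 1 member passed, or 1.56% against 1.19% of all genes, a share near the background. Without 6W replicate 1, 8 members passed as lower (all genes, 0.820%) and Hist2h3c1 (all genes, 1.38%) as higher, and without 6W replicate 2, 1 passed as lower (all genes, 0.496%). The summed level of the members was 51.9% of the 6W mean in 3M replicate 1 and 73.8% in 3M replicate 2.

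**Figure D3:**
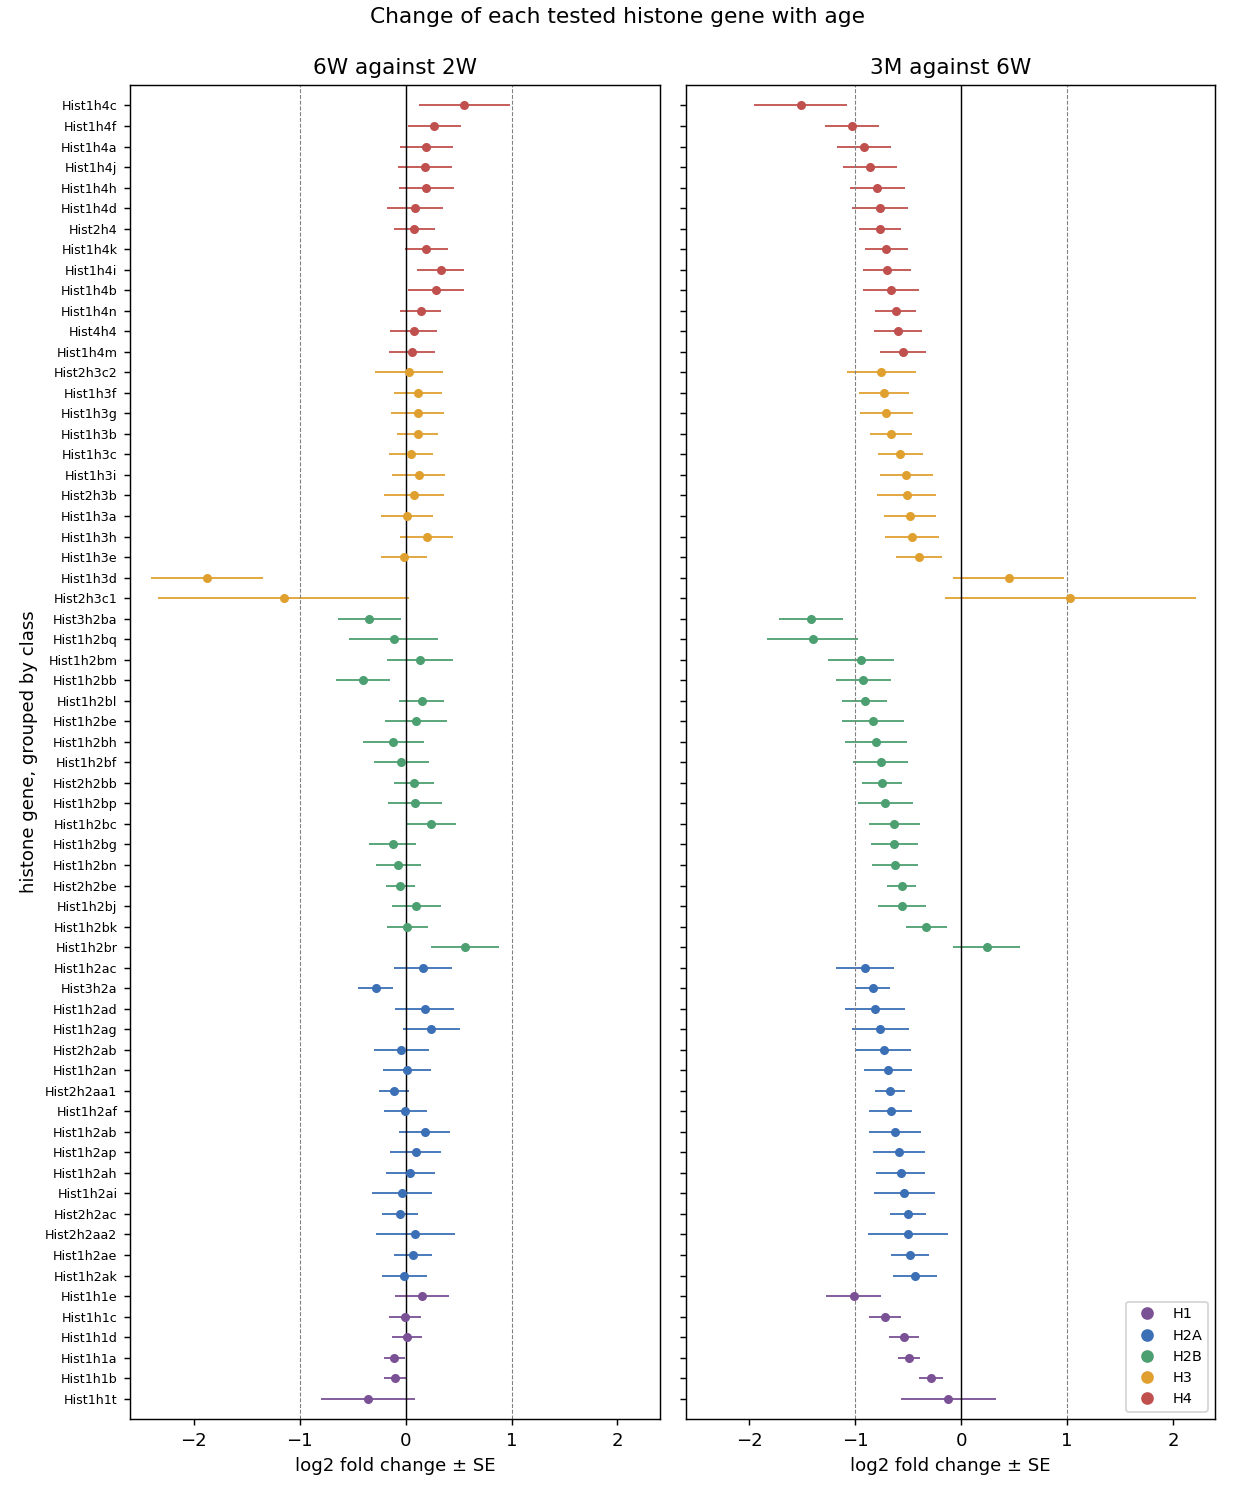
Log2 fold change ± SE from edgeR for each of the 64 tested histone genes in 6W against 2W and in 3M against 6W, coloured by class; dashed lines mark a log2 fold change of 1 in either direction. Members scatter around 0 on the left, and 61 of 64 lie below 0 on the right.

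Of the 5 members past the study's threshold in 3M against 6W, 2 encode H4. Hist1h4c had 361 and 157 CPM at 2W, 289 and 472 CPM at 6W, and 103 and 163 CPM at 3M. Its 3M libraries were below the 6W libraries, and the spread within 2W was wide. The log2 fold change was -1.52 (SE 0.44; edgeR adjusted p = 0.254). Hist1h4f had 654 and 404, 564 and 715, and 271 and 356 CPM at the 3 ages. It was lower at 3M than in every younger library, by -1.03 against 6W (SE 0.26; edgeR adjusted p = 0.232). The promoters of both, shown above, hold GTCCG.

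Hist1h1e, a linker histone gene, had 209 and 137 CPM at 2W, 166 and 219 CPM at 6W, and 80.7 and 110 CPM at 3M. Both 3M libraries were below the younger ones, with a log2 fold change of -1.02 in 3M against 6W (SE 0.26; edgeR adjusted p = 0.232). Hist3h2ba, an H2B gene of the small Hist3 cluster on chromosome 11, had 141 and 98.5, 82.5 and 106, and 25.4 and 44.9 CPM. Both 3M libraries lay below the rest, at a log2 fold change of -1.42 against 6W (SE 0.30; edgeR adjusted p = 0.211).

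The fifth, Hist1h2bq, shares sequence with Hist1h2br. A transcript of each had the same estimated count in all 6 libraries, for example 813.76 in 2W replicate 1, so these reads were divided evenly. Hist1h2bq had 256 and 192 CPM at 2W, 186 and 230 CPM at 6W, and 41.7 and 115 CPM at 3M (log2 fold change in 3M against 6W -1.40, SE 0.43; edgeR adjusted p = 0.268). Hist1h2br had 82.7 and 38.4, 88.8 and 89.7, and 110 and 101 CPM, and was among the 3 members with a positive sign (0.24, SE 0.31). Taken as a pair, they had 339 and 231, 274 and 319, and 151 and 216 CPM, a log2 ratio of means of -0.69 in 3M over 6W, close to that of all members (-0.67). The values of each gene alone are uncertain, and Hist1h2bq stood at -2.37 when 3M replicate 2 was left out and at -0.85 when 3M replicate 1 was. Hist1h1e, Hist1h2bq, Hist1h4c and Hist1h4f each passed the study's threshold in 4 of 6 fits that left out a library and lost it without 6W replicate 2 or 3M replicate 1, and Hist3h2ba passed in 6 of 6. The other positive signs were those of Hist1h3d (0.45, SE 0.52) and Hist2h3c1 (1.03, SE 1.18), an H3 gene with 0.353 to 11.4 CPM.

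Members whose estimated counts were all whole numbers were lower at 3M as well. In 8 tested members every estimated count was whole in every library, to 2 decimals, as when no read is divided: Hist1h1a, Hist1h1b, Hist1h1t, Hist1h4d, Hist2h2ab, Hist2h2be, Hist2h4 and Hist3h2ba. All 8 were lower by sign in 3M against 6W, between -1.42 and -0.12 with a median of -0.65, and 7 had an unadjusted p under 0.05 with edgeR (all genes, 46.8% below 0 and 6.46% lower at that p). Hist2h4, an H4 gene, had 1580 and 1280 CPM at 2W, 1360 and 1680 CPM at 6W, and 746 and 1040 CPM at 3M. Its 3M libraries were below all younger ones (log2 fold change in 3M against 6W -0.76, SE 0.20; edgeR adjusted p = 0.232). Hist1h4d, also H4, was at -0.77 (SE 0.26). Hist1h1t was the exception in size, at -0.12 (SE 0.45).

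Across the whole interval, 3M against 2W, 63 of 64 members were lower by sign, with a median log2 fold change of -0.60 (all tested genes, -0.03). This comparison shares its 3M libraries with the one before. At an adjusted p under 0.05 with edgeR, 7 members fell (10.9% of those tested), against 3.10% of all tested genes in the lower direction. The study's threshold was passed by 5 members, all lower (all genes, 1.68%). An unadjusted p under 0.05 was reached by 36 members that were lower (all genes, 10.6%) and by Hist1h2br, which was higher (0.80, SE 0.32). The libraries did not overlap in the lower direction for 43 members, against 24.0% of all genes. Without 3M replicate 2, 25 members were lower at an adjusted p under 0.05 (all genes in that fit, 2.88%), and without 3M replicate 1 there were 7 (all genes, 4.26%). There were 2 each without 2W replicate 2 (all genes, 0.267%), 6W replicate 1 (0.601%) or 6W replicate 2 (0.602%). Without 2W replicate 1 only Hist1h2br passed, as higher (all genes in that direction, 1.32%). The count of lower members was 25 with DESeq2 (all genes, 4.77%) and 3 with limma on FPKM (all genes, 2.22%). At the study's threshold, 13 members were lower without 2W replicate 2 (all genes, 1.78%), 19 without 3M replicate 2 (2.41%) and 3 without 3M replicate 1 (2.94%).

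Both members of the Hist3 cluster were among these 7. Hist3h2a, an H2A gene, had 825 and 729 CPM at 2W, 600 and 677 CPM at 6W, and 305 and 410 CPM at 3M. The 3 ages did not overlap, and the level was lower at each older age. It fell by 1.12 on the log2 scale from 2W to 3M (SE 0.16; edgeR adjusted p = 0.0124). Hist3h2ba fell by 1.76 (SE 0.31; edgeR adjusted p = 0.019), the largest difference among the members. With a library left out, the log2 fold change lay between -1.38 and -0.89 for Hist3h2a and between -2.27 and -1.39 for Hist3h2ba. At an adjusted p neither call held without 2W replicate 1. Their promoters lie on the same strand of chromosome 11, and that of Hist3h2a holds an octamer.

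In H1, Hist1h1a had 849 and 884 CPM at 2W, 811 and 801 CPM at 6W, and 534 and 613 CPM at 3M. It fell by 0.60 from 2W to 3M on the log2 scale (SE 0.10; edgeR adjusted p = 0.0187). Hist1h1c had 1060 and 1050, 989 and 1110, and 548 and 729 CPM, and fell by 0.72 (SE 0.15; edgeR adjusted p = 0.0298). The libraries of these 2 genes lay close together at 2W and at 6W. Each of the 2 passed in only 2 of the 6 fits that left out a library. Hist1h1b was at -0.38 (SE 0.11; adjusted p = 0.0765). Hist1h1d, read together with assembled transcripts that carry its symbol in capitals, was at -0.52 (SE 0.14), and its annotated transcript alone at -0.74 (SE 0.20; edgeR adjusted p = 0.0736).

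In H2A, Hist2h2aa1 had 1470 and 1120 CPM at 2W, 1160 and 1240 CPM at 6W, and 740 and 774 CPM at 3M. It fell by 0.78 (SE 0.14; edgeR adjusted p = 0.0208). Its near-identical neighbour Hist2h2aa2 had 858 and 644, 605 and 997, and 369 and 766 CPM, with overlapping ages (-0.41, SE 0.38), and the division of reads between these copies is uncertain. In H2B, Hist1h2bb had 461 and 261 CPM at 2W, 263 and 283 CPM at 6W, and 131 and 157 CPM at 3M. It fell by 1.33 (SE 0.26; edgeR adjusted p = 0.0254), with both 3M libraries below the rest. Hist2h2be had 28.4 and 33.3, 31.9 and 27.7, and 21.1 and 19.3 CPM and fell by 0.61 (SE 0.14; edgeR adjusted p = 0.0406). With a library left out, the log2 fold change lay between -1.67 and -0.86 for Hist1h2bb. It lay between -0.955 and -0.569 for Hist2h2aa1 and between -0.72 and -0.489 for Hist2h2be. At an adjusted p the calls of Hist1h2bb and Hist2h2aa1 did not hold in every such fit, and that of Hist2h2be held in none.

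**Figure D4:**
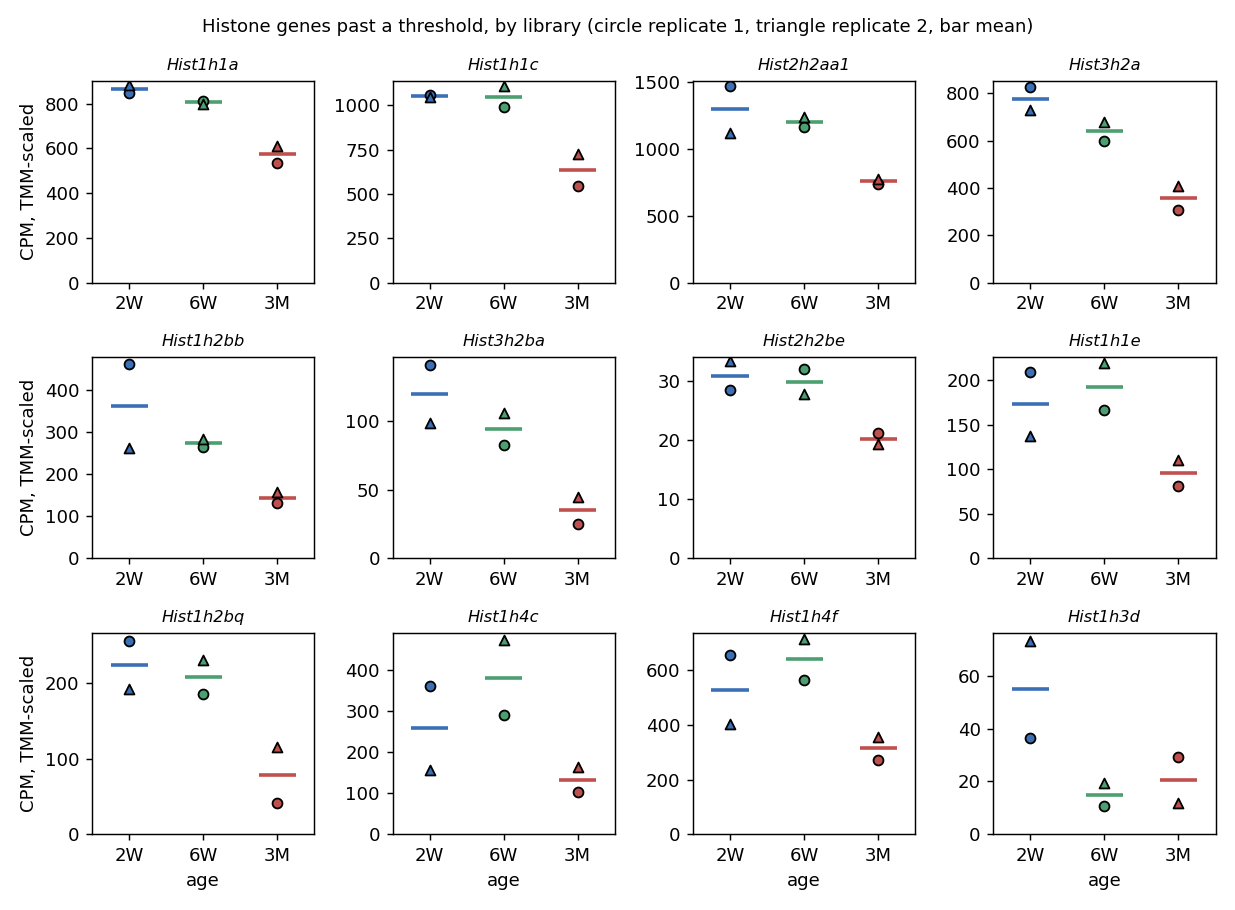
TMM-scaled CPM (vertical axis, from 0) in each library for the 12 histone genes past a threshold in any comparison; circles are replicate 1, triangles replicate 2 and bars the mean of an age. In every panel except that of Hist1h3d both 3M libraries lie below both 6W libraries.

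Some histone genes of these clusters are also known to give polyadenylated mRNA or to be expressed outside S phase. Of 7 such members that were tested, all were lower by sign in 3M against 6W: Hist1h1c (-0.72), Hist1h2bc (-0.63), Hist1h2be (-0.83), Hist2h2be (-0.56), Hist3h2a (-0.84), Hist3h2ba (-1.42) and Hist4h4 (-0.60). Their median was -0.72, and that of the other 57 members was -0.66. In 3M against 2W, 4 of the 7 and 3 of the other 57 fell at an adjusted p under 0.05, against 3.10% of all tested genes. Whether the groups differ was not tested.

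Genes that act in the making of histone mRNA had medians near 0 in 3M against 6W. Genes for the 3' processing and decay of histone mRNA (16 tested) had a median log2 fold change of -0.17 in 6W against 2W and 0.05 in 3M against 6W, and none passed an adjusted p under 0.05 in any comparison. Slbp, which binds the stem-loop, had 134 and 144 CPM at 2W, 116 and 108 CPM at 6W, and 126 and 110 CPM at 3M (3M against 6W 0.08, edgeR adjusted p = 0.795). Genes for histone gene transcription (10 tested) had medians of -0.35 and 0.06, and none passed. Npat, the coactivator at histone loci, was at 0.14 in 3M against 6W (edgeR adjusted p = 0.758). Casp8ap2, which acts in the 3' processing of histone mRNA and is on the first of these lists, was at 0.09. In Npat and Casp8ap2 3M replicate 1 was above 3M replicate 2 (Npat, 115 and 79.6 CPM; Casp8ap2, 116 and 69.8 CPM), while the histone sum was lower in replicate 1.

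S phase genes (24 tested) were all lower by sign in 6W against 2W, with a median of -0.27, and in 3M against 6W 14 were higher and 10 lower, with a median of 0.07. Pcna, the sliding clamp of replication, was at 0.09 in 3M against 6W, and Mcm5, a subunit of the replicative helicase, at 0.05. Uhrf1, which helps copy DNA methylation to the new strand, fell from 2W to 3M by 0.57 (edgeR adjusted p = 0.032). It was the 1 of 24 S phase genes to pass, a share near the 3.10% of all genes that fell. Summed over the list, S phase genes stood at 78.7% to 81.6% of the 2W mean in the 6W libraries and at 81.8% to 85.3% in the 3M libraries. The histone sum stood at 95.5% to 112% at 6W and at 53.8% to 76.6% at 3M. The difference between the lists was not tested.

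Genes of G2 and mitosis (18 tested) were all lower by sign in both steps, with medians of -0.33 and -0.29. From 2W to 3M, 12 of 18 fell at an adjusted p under 0.05 (all tested genes, 3.10%), among them Mki67, a marker of dividing cells (-0.92, edgeR adjusted p = 0.0151), the mitotic cyclin Ccnb2 (-0.69, edgeR adjusted p = 0.0132) and the kinetochore gene Cenpf (-1.06, edgeR adjusted p = 0.0202). Their summed level was lower in 3M replicate 2 (3200 CPM) than in 3M replicate 1 (3980 CPM), the opposite order to that of the histone genes.

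Histone chaperones (17 tested) had medians of -0.25 and -0.01 in the 2 steps. Asf1b, which carries H3 and H4 for assembly on new DNA, fell from 2W to 3M by 0.49 (edgeR adjusted p = 0.0372), the 1 of 17 to pass (all genes, 3.10%). Replacement and other histones had medians of -0.14 and -0.26 (11 tested). Most replacement histones are made outside S phase as well and come from polyadenylated mRNA. H1f0, the linker histone of resting cells, had 85.5 and 121 CPM at 2W, 51.3 and 46.8 CPM at 6W, and 27.2 and 28.2 CPM at 3M. It fell by 1.08 to 6W (edgeR adjusted p = 0.0442) and by 1.90 to 3M (edgeR adjusted p = 0.00561), both against 2W. The ages did not overlap. Cenpa, the centromeric H3, fell by 0.76 from 2W to 3M (edgeR adjusted p = 0.0212). With H1f0 it made 2 of 11 genes of this list that fell in this comparison (all genes, 3.10%). H2afz, H3f3a and H3f3b were at 0.06, 0.07 and -0.26 in 3M against 6W, and none passed. H2afx, which gives both stem-loop and polyadenylated mRNA, was at -0.50 (edgeR adjusted p = 0.383).

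**Figure D5:**
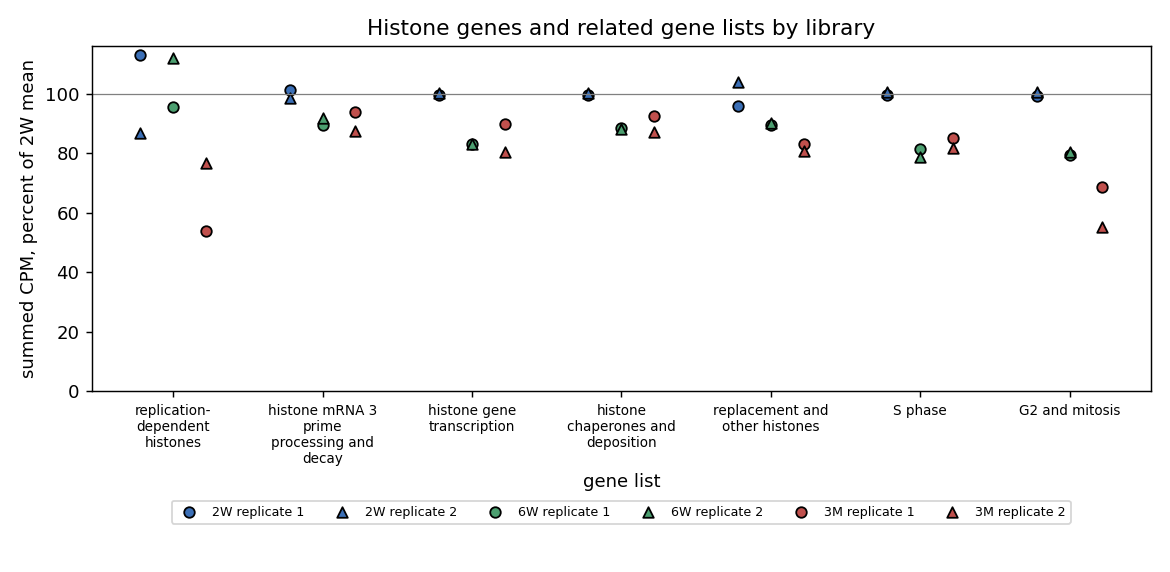
Summed TMM-scaled CPM of the histone genes and of 6 related gene lists in each library, as percent of the mean of the 2W libraries (vertical axis, from 0). At 3M the histone genes stand at 53.8% and 76.6%, the S phase genes at 85.3% and 81.8% and the G2 and mitosis genes at 68.6% and 55.1% (replicates 1 and 2).

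The makeup of the tissue also moved with age. The summed level of 10 double-positive thymocyte markers was 17500 and 19300 CPM at 2W, 16200 and 16100 CPM at 6W, and 14200 and 14000 CPM at 3M, and all 10 were lower by sign in 3M against 6W (median -0.23). The sum of 8 adipocyte markers went from 45.7 and 45.8 CPM at 2W to 145 and 153 CPM at 6W and to 335 and 174 CPM at 3M, being highest in 3M replicate 1, where the histone sum was lowest, and 8 of 8 were higher by sign in 3M against 6W. Red blood cell markers, mostly globins, summed to 407 to 823 CPM in 5 libraries and to 2170 CPM in 3M replicate 2, while Hemgn, on the same list, had 4.7 and 4.28 CPM at 6W and 1.92 and 2.06 CPM at 3M. Myeloid markers summed to 413 and 467 CPM at 2W and to 915 to 1080 CPM at the older ages, while S100a8 and S100a9, genes of neutrophils, passed the study's threshold as lower in 3M against 6W (-2.49 and -3.12). None of the markers on these 4 lists that the table holds was at 0 in a 3M library. Mature thymocyte markers summed to 749 and 825 CPM at 2W and to 1170 to 1310 CPM at the older ages. Fibroblast and vessel markers summed to 650 to 716 CPM at 2W and 6W and to 555 and 465 CPM at 3M, with 5 of 8 lower by sign in 3M against 6W. The sums of thymic epithelium markers (1640 to 2200 CPM), B cell and plasma cell markers (193 to 252 CPM) and skeletal muscle markers (7.21 to 12.7 CPM) completed the lists. The part of these shifts in the histone values was not tested.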

How the data were processed

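RNA of 6 thymus libraries, 2 per age, was used. For the mRNA table the authors deposited expected counts (estimated counts) per transcript, and the authors also deposited FPKM, normalised by transcript length and library total. The submitters' processing notes list Bowtie 0.12.2 and mm8, with no role; the program behind the counts is not given in the sources used here. The circRNA, lncRNA and miRNA tables were not used.

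Transcripts were summed by symbol, joining spellings that differ in case (665 genes, 1 of them a histone gene), and rounded. Transcripts without a symbol (0.699% to 1.2% of counts) were left out of the tests. Tests were edgeR 4.0.16 (R 4.3.3, TMM, filterByExpr by age, quasi-likelihood F test, all 6 libraries, Benjamini-Hochberg over 14805 genes). SEs were derived from the fold change and the F statistic. In simulated data of 14805 genes for 6W against 2W, 82.5% of 200 genes changed 4-fold were recovered at an adjusted p under 0.05 with 16 unchanged genes called, and 94.5% at the study's threshold with 204 unchanged genes called; smaller changes were not simulated. Alternatives were DESeq2 1.42.0, library totals, no filter, 4 libraries, a replicate block, exact symbols, transcripts, limma 3.58.1 on log2(FPKM + 0.1), and each library left out. Shares were computed in Python 3.11.15.

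Named are the 3 members of highest FPKM per class, members with an adjusted p under 0.05, the 2 of smallest p per direction past the study's threshold, the polyadenylated and testis-type sublists and set genes of related lists; further members were named after their values were seen. Members and lists were chosen with earlier results of these data known. Motifs and printed promoters were chosen after the values were seen.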

Additional observations from a re-analysis of the deposited data

How the results depend on the processing

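The 2 libraries per age limit every comparison, and the median histone change kept its sign in 3M against 6W and in 3M against 2W under every alternative run, from -1.001 to -0.44 and from -0.91 to -0.34. With DESeq2, 18 histone genes passed an adjusted p in 3M against 6W and 25 in 3M against 2W, all lower (all genes, 1.29% and 4.77% lower). In 3M against 2W at an adjusted p, 11 passed without the filter (all genes, 2.82% lower), 2 with the 4 libraries only (0.781%), 3 with limma on FPKM (2.22%) and 0 of 73 transcripts when transcripts were tested in place of sums, as did 0 of all 35277 transcripts. At the study's threshold 3 transcripts passed in 3M against 2W (all transcripts, 1.99% lower). With a replicate block, 3 members passed an adjusted p in 3M against 2W (all genes, 0.919% lower). Whether libraries of equal replicate number belong together was not tested. Deviations from the age means of equal numbers correlated at -0.058 (2W and 6W), -0.178 (2W and 3M) and 0.353 (6W and 3M). The cause of these differences was not tested.

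With each library left out in turn, the counts at the study's threshold, both directions together, ranged from 0 to 3 in 6W against 2W (all genes in both directions, 4.21% to 6.35%), from 1 to 32 in 3M against 6W (1.45% to 4.42%) and from 3 to 19 in 3M against 2W (8.75% to 9.92%). At an adjusted p they ranged from 1 to 25 in 3M against 2W (1.55% to 11.4%). The 1 was a higher member, so that lower members ranged from 0 to 25. A lone library of an age was assumed to vary like the others. The histone share of summed FPKM was 9.26% at 2W, 9.54% at 6W and 6.6% at 3M, a different quantity from the share of counts. By single gene, 27 named genes gave 1053 values over the alternatives, and no value past a threshold in either fit changed sign, while 46 values past none did. Without leaving out a library, 13 calls were lost and 12 gained, and with a library left out 31 were lost and 26 gained.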
